A study of Mus musculus with 231 samples.

Results

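MicroRNAs (miRNAs) were compared between month 3 and month 1 in peripheral blood mononuclear cells (PBMC) of the same 7 CM mice, to follow the change that came after the first response to induction. The 14 libraries, 7 from each month, were chosen by arm and month from the sample labels, and they are 14 of the 231 libraries in the whole series, all from its training cohort. CM mice are C57BL/6 knock-in mice of genotype Cbfb56M/+/Mx1-Cre (genotype label CHW), in which poly(I:C) switches on the fusion gene Cbfb-MYH11. At 6 to 8 weeks of age they received 7 intraperitoneal doses of poly(I:C), 14 mg/kg each, every other day. Ctrl mice were littermates given the same injections, with the genotype label HW, CW or WT. What each code stands for is not given, and while the labels describe these littermates as lacking the transgene, the methods would let some hold the uninduced allele. Mx1-Cre is driven by an interferon-responsive promoter that is active in many cell types besides blood, so the fusion need not be restricted to the cells sampled. The 7 CM mice were 4 females (3336, 3338, 3341 and 3357) and 3 males (3334, 3368 and 3370). The 7 Ctrl mice were 2 females and 5 males, and they supplied 14 libraries of the same months as the background of age, time and repeated bleeding. The labels give no disease stage for any month.

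Cbfb-MYH11 is the mouse form of the fusion that an inversion within human chromosome 16 creates in one subtype of acute myeloid leukemia. It disturbs the transcription factor complex of RUNX1 and CBFB that guides blood cell differentiation. A mature miRNA is a short RNA that guides the Argonaute proteins to messenger RNAs, mostly through its seed, bases 2 to 8 from the 5′ end. Many miRNAs mark a blood lineage, such as miR-451a and miR-144 in red cell precursors, miR-223 in granulocytes and monocytes, miR-150 in mature lymphocytes and miR-126 in hematopoietic stem cells, progenitors and endothelium. A level measured in PBMC therefore reflects both the mixture of cells and the amount in each cell, and fewer cells of a type cannot be told apart from less RNA per cell.

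The sequences below are those on which the comparison turned. They were taken from RefSeq (build GRCm38.p6) and are given 5′ to 3′ with the seed in capitals. The first is the 3p arm of miR-126a, the miRNA the study followed.
miR-126a-3p: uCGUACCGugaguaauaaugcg
The next 4 were among the 6 with the smallest p-values of the miRNAs that were higher at month 3, and each has a seed of its own.
miR-6412: uCGAAACCauccucagcuacua
miR-5100: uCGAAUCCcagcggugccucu
miR-1195: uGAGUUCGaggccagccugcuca
miR-3470b: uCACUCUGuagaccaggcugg
The next 6 had the smallest p-values among those that were lower, and miR-141-3p and miR-200c-3p belong to 1 family although their seeds are not identical.
miR-144-3p: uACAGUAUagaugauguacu
miR-199b-3p: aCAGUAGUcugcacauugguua
miR-141-3p: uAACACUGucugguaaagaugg
miR-200c-3p: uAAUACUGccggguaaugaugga
miR-148b-5p: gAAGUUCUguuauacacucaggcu
miR-16-2-3p: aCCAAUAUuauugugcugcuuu
The last 4 were over 2-fold higher in no CM mice other than the 2 whose libraries ended first (miR-31-5p and miR-34a-5p) or gave opposite answers in the 2 deposited tables (miR-19b-3p and miR-30c-5p).
miR-31-5p: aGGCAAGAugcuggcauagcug
miR-34a-5p: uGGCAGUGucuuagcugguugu
miR-19b-3p: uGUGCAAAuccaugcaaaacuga
miR-30c-5p: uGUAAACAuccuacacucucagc

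Exact matches of these sequences were counted on both strands of the mouse genome build NCBIM37 (mm9). Of the 453 miRNAs tested, 375 had a RefSeq sequence, with a median of 1 match, and 6 of them (1.6%) had more than 10. The 21 bases of miR-3470b matched 42725 places, so a read of this sequence does not point to 1 locus. Those of miR-199b-3p are identical to miR-199a-3p and matched 3 places, those of miR-1195 matched 2, and miR-19b-3p and miR-30c-5p each have 2 RefSeq loci. miR-6412 matched once, at chr10:122085468-122085489 on the plus strand, where the GENCODE annotation of that build has no gene. miR-5100 matched once, at chr11:60542200-60542220, in an intron of Smcr7. miR-126a-3p matched once, at chr2:26446922-26446943, within Egfl7, the endothelial gene that hosts it. miR-31-5p (chr4:88556518-88556539) and miR-34a-5p (chr4:149442582-149442603) each matched once, where only the miRNA gene is annotated.

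The 14 CM libraries held between 2327096 and 6233237 counts. Total counts at month 3 differed from those at month 1 by -0.27 on the log2 scale on average (SD 0.59, n = 7 mice, exact two-sided sign-flip permutation test, p = 0.281). The month 1 libraries of mice 3336 and 3368 stood apart. Their summed level of 7 erythroid miRNAs was 554200 and 455200 CPM (counts per 1000000 counts, scaled by trimmed mean of M-values, TMM), against 55640 to 91870 CPM in the other 5 CM libraries of month 1 and 48910 to 93380 CPM at month 3. Both libraries also had the smallest TMM scaling factors of the 14, 0.705 and 0.749. Many, but not all, of the named changes and lists whose size or sign depended on them are given with and without these mice. The part of these libraries was not tested beyond this. PBMC markers were abundant in all 28 libraries of both arms, with at least 58278 counts of miR-150-5p and at least 16130 of miR-223-3p. The most tissue-restricted markers were low, since miR-208b-3p of heart muscle was at 0 in 25 of 28 libraries and miR-122-5p of liver had 1 to 21 counts. Other members of the muscle, liver and vessel wall lists, which more tissues express, were not low: miR-1a-3p had 9 to 2827 counts, miR-192-5p 1118 to 5441, miR-194-5p 215 to 5289 and miR-143-3p 263 to 3508. The epithelial miR-200 family, miR-203-3p and miR-205-5p were present in every library.

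No miRNA passed the paired test across the 7 CM mice. edgeR's quasi-likelihood test, with the mouse as a block and Benjamini-Hochberg adjustment, called 0 of 453 miRNAs (0%), and the smallest adjusted p was 0.219. At an unadjusted p under 0.05 it had 25 miRNAs (5.52%), 20 higher and 5 lower at month 3. DESeq2 called 6, all higher, and limma on the deposited CPM called 0 of 579, with 33 at an unadjusted p under 0.05. Without the pairing, edgeR called 5, all higher. The median log2 fold change over all 453 was -0.02 and the median standard error 0.31. The same test gave 39 calls in the 7 Ctrl mice (8.52% of 458; 18 or 3.93% higher and 21 or 4.59% lower), with a median standard error of 0.16. These Ctrl calls fell to between 1.52% and 5.97% of miRNAs when 1 Ctrl mouse was left out (fewest without mouse 3346), and to 0.873% with the G number of the library names as a covariate and no pairing. The difference between the changes of the 2 arms, tested as an interaction over all 28 libraries, was called for 0 of 514 miRNAs by edgeR (51, or 9.92%, at an unadjusted p under 0.05) and for 7 by DESeq2.

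miR-126a-3p did not move in 1 direction. In deposited CPM, the normalised values of the authors, month 1 ranged from 222 to 446.5 with a median of 350.4, and month 3 from 150.2 to 1534 with a median of 255. Mouse 3338 went from 420.5 to 1534 and mouse 3357 from 390.2 to 1374. Mouse 3341 went from 286 to 316, and the remaining 4 mice were lower at month 3: 3334 went from 222 to 150.2, 3336 from 446.5 to 214, 3368 from 350.4 to 255 and 3370 from 286 to 221.5. The months therefore overlapped, with 2 libraries far above the rest at month 3. The mean paired change was 0.20 ± 1.175 on the log2(CPM + 1) scale (SD, n = 7; exact two-sided sign-flip permutation test, p = 0.688, adjusted over 4 tests p = 0.859), and the smallest p that 7 pairs allow is 0.0156. Without mice 3338 and 3357 the mean change was -0.46. These 2 mice were left out after their high values were seen, so the lower mean follows from that choice.

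The other arm of the hairpin, miR-126a-5p, followed the same course. Its deposited CPM was 101.7 to 169 at month 1 (median 156.7) and 44.3 to 778 at month 3 (median 116.4). Mice 3338 and 3357 stood at 778 and 745 at month 3, and each of the other 5 was lower than at month 1. The mean paired change was 0.22 ± 1.37 (SD, n = 7; exact sign-flip permutation p = 0.703, adjusted p = 0.859). In Ctrl mice miR-126a-3p stood between 90.3 and 128.7 CPM at month 1 (median 97.97) and at no less than 91.7 CPM at month 3 (median 113.2), a mean paired change of 0.01 ± 0.11 (SD, n = 7, adjusted exact permutation p = 0.859), and miR-126a-5p had a change of -0.19 ± 0.33 (adjusted exact permutation p = 0.562). All 7 CM mice were above every Ctrl mouse for miR-126a-3p at both months. How many other miRNAs separated the arms in this way was not counted. The first month after induction, which shares its month 1 libraries with the comparison, had given log2 fold changes of 1.43 for the 3p and 1.54 for the 5p arm (adjusted p = 0.0125 for both, edgeR; 16 miRNAs or 3.43% were called, 8 or 1.72% in each direction), beside 0.13 ± 0.39 and 0.09 ± 0.42 (SE) from month 1 to 3.

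Of the 6 miRNAs with the smallest p among those higher at month 3, given here as values and not as calls, miR-6412 had the most even change. It stood at 50.9 to 120.1 CPM at month 1 (median 66.5) and at 137.2 to 179.7 CPM at month 3 (median 146.6). The months did not overlap, and it was the only miRNA of the 453 tested of which this was true in the higher direction (0.221%), with none in the lower, beside 2 (0.437%) higher and 10 (2.18%) lower in Ctrl mice. It was higher in 7 of 7 mice, by 0.97 ± 0.21 on the log2 scale (SE; p = 0.00104, adjusted p = 0.219, edgeR). The change was 1.0 in reads recovered from the deposited CPM table and 0.95 with the G number of the library names as a covariate, so its size was alike in both tables and with that number. It had already risen by 0.71 ± 0.16 in the first month (adjusted p = 0.0444, edgeR). Ctrl mice stood at 60.03 to 231.7 CPM and then at 105.1 to 148 CPM (0.35 ± 0.24), so at month 3 the ranges of the arms overlapped, with CM mice mostly higher. That difference in level was not tested.

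miR-5100 was also higher in 7 of 7 CM mice. Its levels were 90.1 to 289 CPM at month 1 (median 182) and 254 to 485 CPM at month 3 (median 352), with an overlap of the months, and the change was 0.97 ± 0.24 (adjusted p = 0.301, edgeR). In Ctrl mice it had a change of -0.08 ± 0.19, and the difference between the arms was 1.1 (unadjusted p = 0.00264, not called). In the reads recovered from the deposited CPM table the change in CM mice was 0.50 ± 0.27 (unadjusted p = 0.0882, edgeR). Its deposited CPM was far lower, at 10.75 to 26.29 at month 1 (median 13.98) and 15.6 to 25.19 at month 3 (median 21.93).

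miR-1195, miR-3470b and miR-3470a are low-level miRNAs. miR-1195 went from 3.64 to 9.98 CPM (median 7.42) to 9.86 to 72.6 CPM (median 20.3) and was higher in 7 of 7 CM mice, by 1.92 ± 0.50 (adjusted p = 0.318, edgeR). The mice were uneven, since 3334, 3336 and 3368 reached 51.5 to 72.6 CPM and the other 4 stayed at 9.86 to 20.3. Ctrl mice had a change of 1.61 ± 0.48, a difference between arms of 0.37 (unadjusted p = 0.621), and CM mice one of -1.77 in the first month (adjusted p = 0.0313, edgeR). miR-3470b went from 8.19 to 16.0 CPM to 14.4 to 59.9 CPM (1.54 ± 0.33, adjusted p = 0.219, edgeR), and in Ctrl mice the change was 0.81 ± 0.34. miR-3470a had a change of 1.97 ± 0.59 in CM and 1.36 ± 0.40 in Ctrl mice. In the recovered reads miR-3470b had a change of 0.23 only (p = 0.561), whereas miR-1195 had a change of 1.87.

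miR-467a-5p, a member of the large cluster in an intron of Sfmbt2, had the largest fold change of the named miRNAs and the least stable one. It stood at 1.099 to 128.6 CPM at month 1 (median 12.1) and at 61.8 to 286 CPM at month 3 (median 86.3), higher in 6 of 7 mice, by 3.14 ± 0.71 (adjusted p = 0.219, edgeR). In the reads recovered from the deposited CPM table it had a change of 0.28 ± 0.29 (p = 0.346).

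The 6 miRNAs with the smallest p among those lower at month 3 belonged to red cells, platelets and epithelium in part, and none was called. miR-144-3p, a red cell miRNA processed from the same transcript as miR-451a, went from 7416 to 59630 CPM (median 12620) to 2267 to 18720 CPM (median 11240), by -1.07 ± 0.38 (adjusted p = 0.752, edgeR), and was lower in 6 of 7 mice. The 2 highest month 1 values were those of mice 3336 and 3368, and without these mice the change was -0.67 (adjusted p = 0.600, edgeR). miR-199b-3p, abundant in platelets, went from a median of 17.1 CPM (15.1 to 71.4) to 16.0 CPM (9.15 to 18.5), by -0.94 ± 0.35, and by -0.50 without mice 3336 and 3368. miR-16-2-3p went from a median of 69.6 to 57.8 CPM, by -0.53 ± 0.26, and by -0.22 without those mice. miR-148b-5p went from a median of 70.1 to 52 CPM, by -0.48 ± 0.23, and by -0.28 without them. All 4 changes were thus smaller without the pair of libraries rich in red cell miRNAs. miR-144-3p is among the miRNAs by which this pair was set apart, so its smaller change follows from that choice.

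miR-141-3p and miR-200c-3p are neighbours in 1 cluster on chromosome 6 and are known for holding epithelial cells in their state. miR-141-3p went from 74.1 to 203 CPM (median 118.1) to 48.4 to 113.5 CPM (median 64.3), by -0.74 ± 0.31 (adjusted p = 0.752, edgeR), and by -1.23 without mice 3336 and 3368 (adjusted p = 0.159). miR-200c-3p went from 296 to 784 CPM (median 459.8) to 188 to 678 CPM (median 303), by -0.72 ± 0.33. Ctrl mice went the other way for miR-200c-3p, from a median of 545 to 859 CPM (0.77 ± 0.24, adjusted p = 0.0798), and the difference between the arms was -1.43 (unadjusted p = 0.00325, not called).

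**Figure D1:**
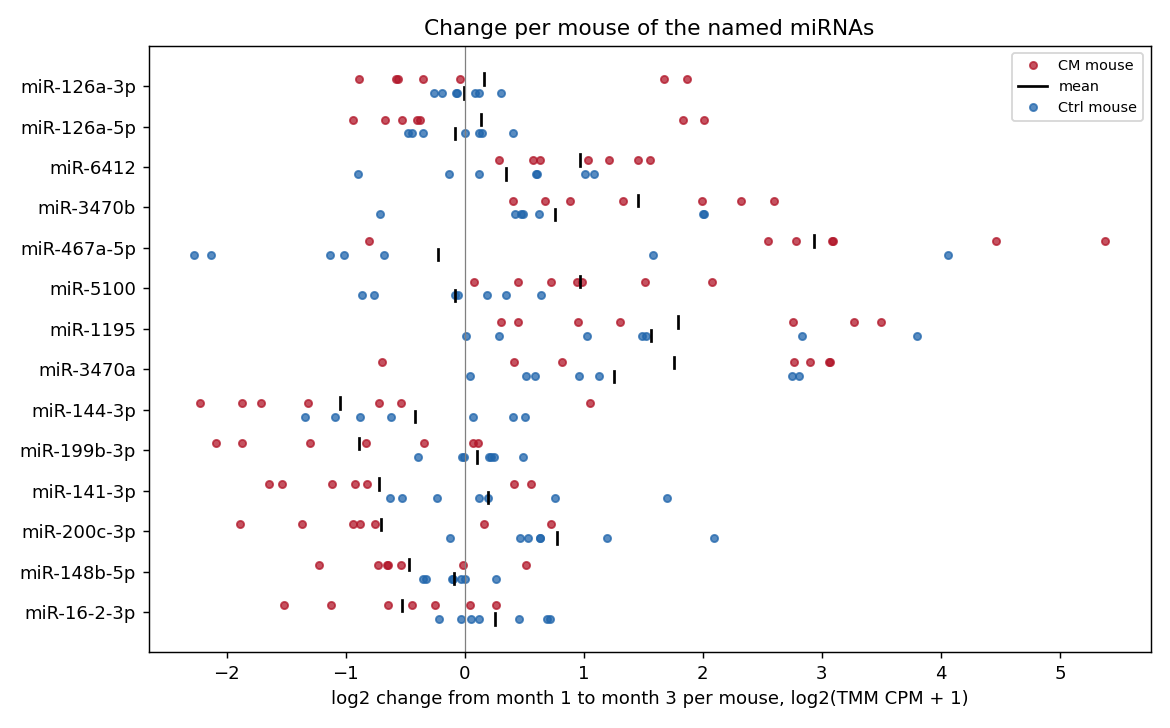
Log2 change from month 1 to month 3 of log2(TMM CPM + 1) in each mouse (x axis) for the 14 named miRNAs (y axis), with CM mice in red, Ctrl mice in blue and the mean of 7 mice as a black bar. The CM points of both miR-126a arms fall into 5 below 0 and 2 above 1.6, whereas those of miR-6412, miR-5100, miR-1195 and miR-3470b are all above 0.

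Lists of lineage, family and cluster miRNAs were described by their counts and medians. No member of any list was called in CM mice by edgeR (0 of 453 over all miRNAs). All 7 erythroid miRNAs (miR-451a, both arms of miR-144 and 4 forms of miR-486) had negative changes, with a median of -0.54 beside -0.02 over all miRNAs. Without mice 3336 and 3368 their median was 0.34 and 5 of 7 were positive, so the direction turned on these 2 mice. These mice had been set apart by their high month 1 level of the same 7 miRNAs, so the higher median follows from that choice. miR-451a, which red cell maturation needs, went from 25090 to 334800 CPM (median 34290) to 18940 to 51630 CPM (median 31270). In Ctrl mice the erythroid median was 0.56 and 5 of 7 were called higher, beside 3.93% of all miRNAs, among the Ctrl calls that were fewer with 1 mouse left out or with the G number. These 5 were miR-144-5p and the 4 forms of miR-486. miR-451a had a change of 0.15 and miR-144-3p of -0.43 in Ctrl mice, and neither was called. The summed erythroid level was higher at month 3 in 3 of 7 Ctrl mice. The 2 tested miRNAs of the platelet and megakaryocyte list were negative in CM mice (median -1.10, or -0.65 without mice 3336 and 3368). Their list summed to 90.5 CPM in each of the month 1 libraries of mice 3336 and 3368, to 17.7 to 44.5 CPM in the other 5 and to 13.3 to 22.6 CPM at month 3.

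Lymphocyte miRNAs had the opposite signs. All 6 tested members of the mature lymphocyte list (miR-150, miR-342 and miR-28a) were positive with a median of 0.09, but without mice 3336 and 3368 all 6 were negative (median -0.24). miR-150-5p, which restrains Myb in lymphocytes, went from 13260 to 51150 CPM (median 35320) to 16280 to 43280 CPM (median 37430), a change of 0.14 ± 0.32. Granulocyte and monocyte miRNAs were positive in CM mice with and without those mice (3 of 3; medians 0.33 and 0.19). miR-223-3p, which tempers granulocyte production, went from 3909 to 11300 CPM (median 6221) to 5247 to 11380 CPM (median 7591), higher in 6 of 7 mice by 0.33 ± 0.19 (adjusted p = 0.926, edgeR). Its log2 change was uneven, at 0.90 in mouse 3336, 0.77 in 3368 and 0.55 in 3341. In mice 3334, 3357 and 3370 its change was only 0.09, 0.07 and 0.01. In Ctrl mice it had a change of -0.86 ± 0.31, and 2 of the month 1 libraries (mice 3342 and 3346) held summed levels of 28410 and 23920 CPM for this list against 5214 to 9186 in the other 5. The difference between arms for miR-223-3p was 1.24 (unadjusted p = 0.00386, adjusted p = 0.211, edgeR).

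The inflammatory list (miR-155, miR-146, miR-147 and miR-21a) had 8 of 8 positive changes (median 0.18), and 3 of 8 without mice 3336 and 3368. miR-21a-5p, the most abundant of them, stood at a median of 124800 CPM at month 1 and 127500 CPM at month 3 (0.08 ± 0.24). The stem and progenitor list had 9 of 13 positive (median 0.16). Its most abundant member, miR-10a-5p of the Hox clusters, went from a median of 5911 to 7633 CPM, higher in 7 of 7 CM mice by 0.35 ± 0.18, beside 0.29 ± 0.15 in Ctrl mice. Epithelial miRNAs were negative in 6 of 7 (median -0.64) in CM and positive in 7 of 7 (median 0.52) in Ctrl mice. Without mice 3338 and 3357 the epithelial median in CM mice was 0.00. miR-203-3p, the most abundant of them, had a positive change (0.09 ± 0.24).

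The families that act on proliferation had medians near 0 or below it over all 7 CM mice. miR-17-92 and its paralogs had 8 of 20 positive (median -0.10), but 12 of 20 without mice 3336 and 3368 (median 0.15). let-7 had 4 of 9 (median -0.02), but 7 of 9 without them (median 0.24). miR-30 had 4 of 11 (median -0.12, or -0.01 without them), and miR-15 and miR-16 had 0 of 9 (median -0.36, or -0.03 without mice 3336 and 3368). The imprinted Sfmbt2 cluster had 18 of 29 positive (median 0.08) in CM mice, but 4 of 28 without mice 3336 and 3368 (median -0.34), so its sign turned on these mice. In Ctrl mice 8 of 36 were called lower, beside 4.59% of all miRNAs, and the median was -0.54. The 3 tested miRNAs of the imprinted Gnas locus had a median of -0.20 in CM mice, which was 0.28 without mice 3336 and 3368 and -1.02 without mice 3338 and 3357, and all 3 were called lower in Ctrl mice (median -0.95). Vessel wall, muscle and liver lists had medians of -0.59 (3 tested), -0.56 (4 tested) and -0.36 (2 tested), and without mice 3336 and 3368 of -0.35 (2 tested), -0.01 and 0.00, with no member called. The miR-181 family of immature lymphocytes had 6 of 8 positive (median 0.15, or -0.29 without mice 3336 and 3368) and the miR-23, miR-24 and miR-27 family 6 of 10 (median 0.16, or -0.05). The miR-29 family, which acts on collagen and on DNA methyltransferases, had 4 of 7 positive (median 0.08, or -0.45 without those mice). miR-132 and miR-212 had 4 of 4 positive (median 0.38), but 1 of 4 without mice 3338 and 3357 (median -0.12), and the 2 miRNAs of the Mest locus were both positive (median 0.34, or 0.06 without those mice). The miR-34 family had 1 of 3 positive (median -0.12, or 0.42 without mice 3336 and 3368), and miR-221 and miR-222 had 1 of 4 (median -0.09, or 0.23 without mice 3336 and 3368). The lists of miR-130 and miR-301, of miR-182 to miR-96, of the X chromosome cluster from miR-188 to miR-660, and of miR-193 and miR-365 had medians between -0.29 and 0.00. Of these, the X chromosome cluster had 4 of 8 positive, but 1 of 8 without mice 3336 and 3368 (median -0.25).

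**Figure D2:**
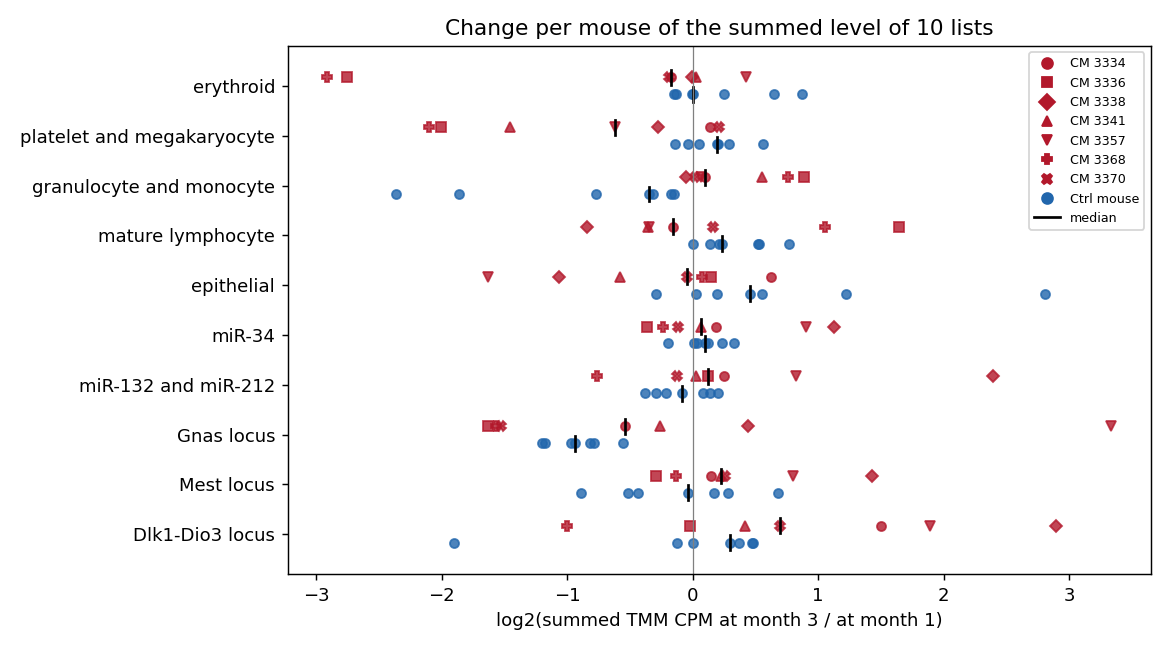
Log2 ratio of the summed TMM CPM of 10 lists at month 3 to that at month 1 (x axis) in each mouse, with CM mice in red by symbol, Ctrl mice in blue and the median of 7 mice as a black bar. Mice 3336 and 3368 are lowest for the erythroid list and highest for the mature lymphocyte list, and mice 3338 and 3357 are highest for the miR-34, miR-132 and miR-212, Gnas, Mest and Dlk1-Dio3 lists.

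The change from month 1 to month 3 differed between CM mice. Mice 3338 and 3357 had their last libraries at month 4, and the other 5 had later ones, between months 6 and 10. This pair was singled out after its values were seen, both mice are female, and with 2 mice no test was made. For some miRNAs the pair already stood above the other 5 CM mice at month 1. Among these were miR-31-5p (1236 and 1694 against at most 1207 CPM), miR-200b-3p (518.5 and 839.8 against at most 319.5 CPM) and miR-205-5p (281.8 and 677.4 against at most 133.3 CPM). For miR-126a-3p and miR-34a-5p the month 1 ranges overlapped. In raw counts scaled by TMM, 325 miRNAs had a mean of at least 10 CPM. Of these, 10 were more than 2-fold higher and 5 more than 2-fold lower at month 3 in both mice. Mouse 3338 had 31 higher and 31 lower by this fold (62, or 19.1%), and mouse 3357 had 30 and 22 (52, or 16%). Only 5 of the 10 and 1 of the 5 passed it in the same direction in no other CM mouse. The overlap within other pairs of CM mice was not counted. The deposited CPM also gave 7 of the 10 and 4 of the 5.

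Both arms of miR-126a, miR-31-5p and miR-34a-5p were among them in both tables and were over 2-fold higher in no other CM mouse. miR-26a-5p, miR-19b-3p and miR-335-5p were among the 10 as well, but not in the deposited CPM. miR-31-5p, which acts on cell invasion and on NF-kappaB signalling, stood at 1694 CPM in mouse 3338 and 1236 CPM in mouse 3357 at month 1 and at 3900 and 3838 CPM at month 3. At month 4 it reached 13770 and 5462 CPM. In the other 5 CM mice it went from 406 to 1207 CPM to 474 to 686 CPM, and in Ctrl mice it stood at 165 to 255 and 153 to 525 CPM. The change over all 7 CM mice was 0.04 ± 0.36 (adjusted p = 0.986, edgeR), after 1.51 ± 0.28 in the first month (adjusted p = 0.0203).

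miR-34a-5p, a target of p53 that slows the cell cycle, stood at 44.1 and 43.99 CPM in mice 3338 and 3357 at month 1 and at 101.3 and 111.1 CPM at month 3. The other 5 CM mice stayed at 39.4 to 49.9 CPM and then at 40.8 to 48.8 CPM. Ctrl mice stood at 84.4 to 109.6 CPM and then at 91.1 to 103.4 CPM, so the pair reached the level of Ctrl mice at month 3 and the other CM mice remained below it. At month 4 mouse 3338 stood at 788 CPM and mouse 3357 at 113.3 CPM, and the 4 other CM mice with a library at 42.7 to 54.97 CPM. In the first month its change had been -0.74 ± 0.16 (adjusted p = 0.0397, edgeR). From month 1 to 3 the change over 7 mice was 0.39 ± 0.24 (adjusted p = 0.926).

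**Figure D3:**
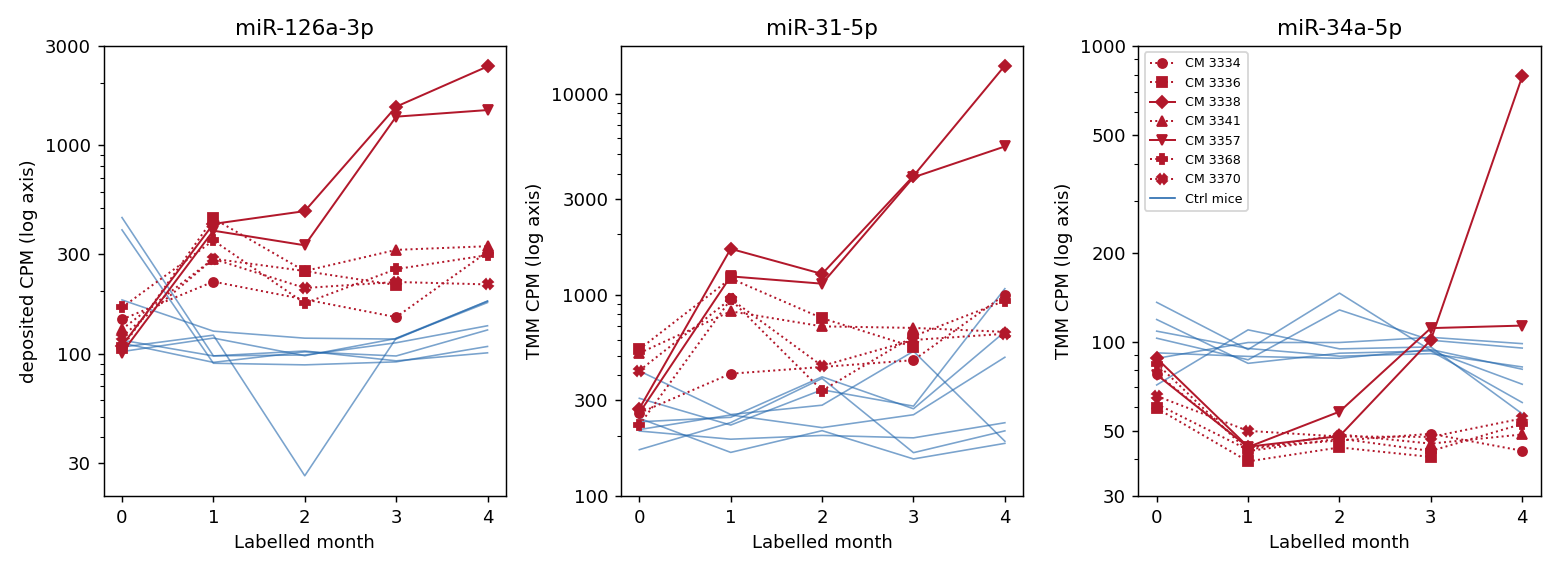
Levels of miR-126a-3p (deposited CPM), miR-31-5p and miR-34a-5p (TMM CPM) on log axes by labelled month from 0 to 4, with 1 line per mouse, CM mice 3338 and 3357 as solid red lines, the other CM mice as dotted red lines and Ctrl mice as blue lines. At month 3 the 2 solid lines lie above the other CM mice in all 3 panels, and for miR-31-5p they did so at month 1 as well. Mouse 3334 has no library at month 2 and mouse 3336 none at month 4.

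Other miRNAs were higher in this pair by unequal amounts. miR-335-5p, in an intron of the imprinted gene Mest, went from 23.9 and 23.97 CPM to 80.5 CPM in mouse 3338 and 50.5 CPM in mouse 3357, against 14.4 to 34.5 CPM in the other CM mice at month 3. Both were back at 21.6 and 23.2 CPM at month 4. miR-132-3p, which responds to CREB, reached 149 CPM in mouse 3338 and 43.7 CPM in mouse 3357, against 20.9 to 31.6 CPM in the other CM mice, and 381 and 74.2 CPM at month 4. miR-298-5p of the Gnas locus reached 260.1 CPM in mouse 3357 and 31.5 CPM in mouse 3338, against 6.87 to 13.4 CPM. The Dlk1-Dio3 cluster, the largest imprinted miRNA cluster, summed to 75.3 CPM in mouse 3338 and 32.2 CPM in mouse 3357 at month 3 and to 8.00 to 16.4 CPM in the other 5, and no member of it passed the filter of the paired test. miR-27a-5p went from 67.1 and 60.3 CPM to 431 and 208 CPM, but was also over 2-fold higher in mice 3336 and 3341.

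The miRNAs that were over 2-fold lower in both mice were epithelial in part. miR-200b-3p went from 518.5 to 207 CPM in mouse 3338 and from 839.8 to 135.4 CPM in mouse 3357. miR-429-3p and miR-205-5p were over 2-fold lower in them as well, miR-429-3p also in mouse 3341 and miR-205-5p also in mice 3336 and 3370. miR-200b-3p and miR-429-3p, which share a seed with miR-200c-3p, were highest in these 2 mice at month 1 among the CM libraries.

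The size of the change differed between mice and between arms. Of 325 miRNAs, between 43 (13.2%, mouse 3370) and 141 (43.4%, mouse 3336) were over 2-fold higher or lower in a CM mouse, and 24.9% were in mouse 3334, 15.1% in mouse 3341 and 32.3% in mouse 3368. In Ctrl mice between 21 (6.46%) and 67 (20.6%) were, and the other 5 Ctrl mice had 7.08%, 8%, 9.85%, 10.5% and 17.5%. The means were 76.1 ± 35.8 in CM and 37.1 ± 17.8 in Ctrl mice (SD, n = 7 each; exact two-sided permutation test over mice, p = 0.0169, adjusted over 4 such tests p = 0.0338). This test was chosen after the data were seen, and without mice 3336 and 3368 the CM mean was 57.4 and p = 0.0669 (exact permutation, n = 5 against 7). In the deposited CPM the means were 66 and 22.6 of 333 (exact permutation p = 0.0169, adjusted p = 0.0338), and without mice 3336 and 3368 they were 45.2 and 22.6 (exact permutation p = 0.0631, adjusted p = 0.0669). The shares there were 24.9%, 42.3%, 14.1%, 9.91%, 9.91%, 28.5% and 9.01% in the CM mice in ascending order of their numbers, and 7.21%, 2.7%, 4.2%, 14.7%, 12.3%, 3.6% and 2.7% in the Ctrl mice. The median SD of the paired log2 change was 0.74 in CM and 0.34 in Ctrl mice, and it was larger in CM for 276 of 325 miRNAs (84.9%). Without mice 3336 and 3368 the CM median was 0.53.

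**Figure D4:**
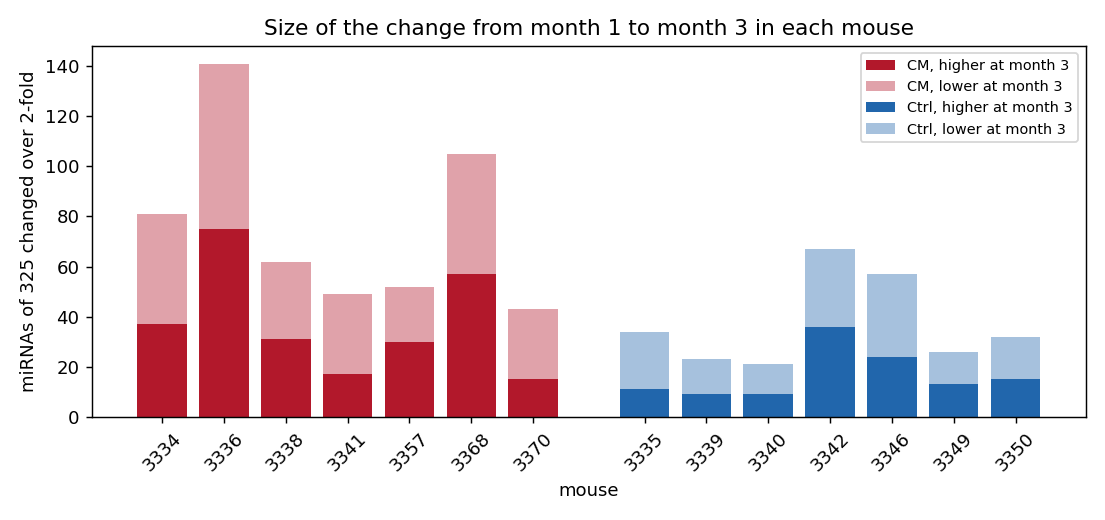
Number of miRNAs, of 325 with a mean of at least 10 TMM CPM, that were over 2-fold higher (dark) or lower (pale) at month 3 than at month 1 in each mouse, with CM mice in red and Ctrl mice in blue. Mice 3336 and 3368 have the tallest bars, 43.4% and 32.3% of the miRNAs, and the 7 Ctrl mice lie between 21 and 67.

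The 39 miRNAs called in Ctrl mice had changes of both signs in CM mice. Of the 37 also tested in CM mice, 19 had the same sign in both arms. The median change of those that rose in Ctrl mice was 0.50 there and -0.05 in CM mice, and that of those that fell was -0.95 and -0.08. miR-503-3p and miR-466h-3p, those with the smallest p in Ctrl mice in each direction, are named after their values were seen. miR-503-3p rose by 1.15 in Ctrl mice and had a change of 0.00 in CM mice, and miR-466h-3p of the Sfmbt2 cluster fell by 1.16 and had a change of -0.31. Month and G number moved together in Ctrl mice, whose month 3 libraries carried the numbers 1 to 3 and the month 1 libraries mostly 5 and 6. With that number as a covariate and no pairing, 4 miRNAs were called in Ctrl mice and 0 in CM mice (40 at an unadjusted p under 0.05, edgeR). No difference in change between male and female CM mice was called by edgeR's test (0 of 453, 0%; 14, or 3.09%, at an unadjusted p under 0.05; DESeq2 called 3), with 3 males and 4 females.

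The 2 deposited tables gave different changes for some miRNAs of the same libraries, and the examples were picked for this. Over 336 miRNAs compared, the SD across the 14 libraries of the log2 ratio of the raw-count CPM to the deposited CPM had a median of 0.106, but it exceeded 1 for 25. Of the 18 of these with a RefSeq locus, 16 (88.9%) have 2 or more loci, against 6 of 258 (2.33%) of the others. miR-19b-3p of the miR-17-92 family had a change of 1.71 in the raw counts and of -0.21 in the recovered reads, and miR-30c-5p of 1.44 and -0.28. miR-16-5p had changes of -1.12 and -0.15. Both miR-126a arms, miR-6412, miR-1195 and the 6 named miRNAs that were lower differed by less than 0.1 between the tables. Levels of the miRNAs with several loci are uncertain in either table. Levels also differed between the tables for some miRNAs with 1 RefSeq locus, such as miR-5100.

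**Figure D5:**
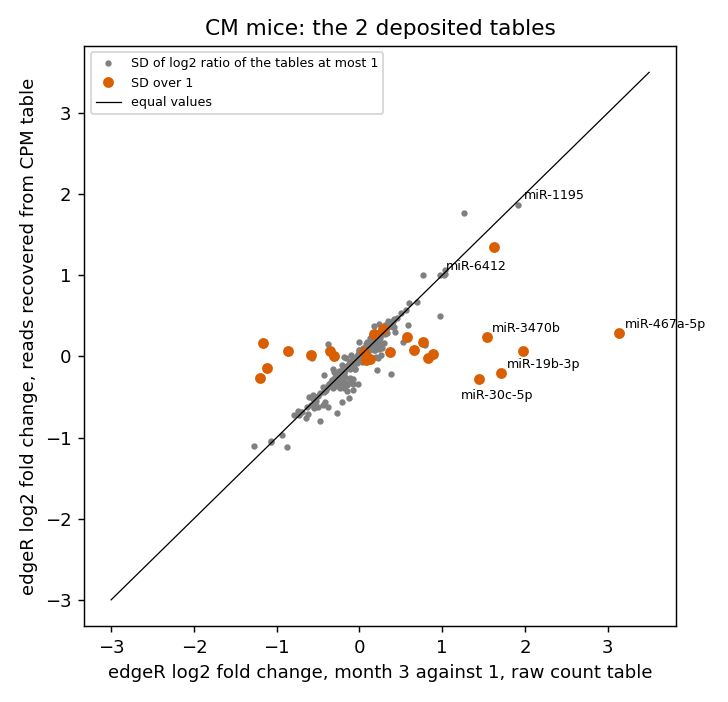
edgeR log2 fold change of month 3 against month 1 in CM mice from the raw count table (x axis) and from the reads recovered from the deposited CPM table (y axis) for 329 miRNAs, with the 24 whose log2 ratio of the tables had an SD over 1 in orange. The orange points lie between -0.28 and 0.34 on the y axis, except miR-135a-5p at 1.35, and the grey points follow the diagonal.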

How the data were processed

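Small RNA was sequenced from PBMC of CM and Ctrl mice, bled monthly. The deposited count table holds raw counts of 1863 mature miRNAs that the authors made with mirTOP, whose settings are not given in the sources used here. The deposited CPM table holds 1895 miRNAs normalised by the authors (treated as a signal never below 0), and 100% of its 124694 values in the libraries checked came out as whole reads within 0.01 read. The methods name the genome build mm9, whereas the labels name GRCm38. Columns of per-sample values left unused numbered 0.

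Groups, mice and months came from the sample titles. Because the same mice were bled in both months, edgeR 4.0.16 (quasi-likelihood test, TMM, filterByExpr) had the mouse as a block, and miRNAs were called at a Benjamini-Hochberg adjusted p under 0.05. Deviations of same-numbered libraries correlated by -0.265 to 0.121 in CM and -0.0967 to 0.285 in Ctrl mice. A level in CPM is a TMM-scaled value of the raw counts unless named deposited. miR-126a was tested on log2(deposited CPM + 1) by exact sign flips. Alternatives used DESeq2 1.42.0, limma 3.58.1, other scalings and filters, and left-out mice. The edgeR and DESeq2 fits with the mouse as a block were tested on simulated data that held no differences between mice. The other fits and the exact tests were not.

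The members, lists and tests were chosen with earlier results of these data known. The miRNAs named were both arms of miR-126a, up to 12 called in each direction or, with fewer than 6 called, the 6 with the smallest p (mean of at least 10 CPM), and the most abundant member of each list, several of which are given only within their list's counts. Other miRNAs were named after their values were seen. The part of marker levels, G number or single libraries in a result was not tested beyond the fits given. In the paired fits and the exact tests, p-values refer to the spread between mice. In fits without the pairing they refer to the spread between libraries.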

Additional observations from a re-analysis of the deposited data

Results flagged for a closer look

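In groups of 7 libraries, 1 library stood apart by Dixon's criterion in 18 of the groups examined (17% of them). The criterion is set to give about 1 in 20 by chance for normally distributed values. Levels were not put on a log scale and the groups share libraries, so the 17% does not measure an excess over chance. Among CM libraries of month 3, mouse 3336 had 179.7 CPM of miR-6412 (next 152), mouse 3357 had 286.3 CPM of miR-467a-5p (next 110), and mouse 3334 had 678 CPM of miR-200c-3p (next 349.1) and 2972 CPM over the epithelial list (next 2083). Mouse 3338 had 270.5 CPM over the miR-132 and miR-212 list (next 71.37) and 75.29 CPM over the Dlk1-Dio3 list (next 32.15), and mouse 3357 had 428.7 CPM over the Gnas list (next 58.04). In the last 3 lists the next library was that of the other mouse of this pair.

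Among CM libraries of month 1, mouse 3338 had 128.6 CPM of miR-467a-5p (next 32.62) and mouse 3370 had 15.97 CPM of miR-3470b (next 11.21). Without mouse 3338, miR-467a-5p was the only miRNA called in any fit that left out 1 CM mouse (adjusted p = 0.0392, edgeR), whereas in the recovered reads of all 7 mice it had a change of 0.28.

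In the Ctrl arm, mouse 3342 stood apart most often. At month 1 it had 231.7 CPM of miR-6412 (next 119.2), 517.5 CPM of miR-5100 (next 343.9) and 37.18 CPM over the Dlk1-Dio3 list (next 11.56). At month 3 it had 297.2 CPM of miR-141-3p (next 197.9), 8904 CPM over the epithelial list (next 4053) and 7822 CPM over the granulocyte and monocyte list (next 5386). Mouse 3335 had 31.14 CPM of miR-1195 (next 12.91) and 19.26 CPM of miR-3470a (next 7.568) at month 1, and the month 1 library of mouse 3346 had 6334849 counts (next 5173840).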

How the results depend on the processing

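For month 3 against month 1 in CM mice, 0 miRNAs were called with raw library sizes, RLE factors, scaling without the 5 most abundant miRNAs, a mean count of at least 10, limma on the deposited CPM, the recovered reads, the G number as a covariate, and without mice 3336 and 3368 or 3338 and 3357. No replicate block (months compared without the pairing by mouse) gave 5 (miR-5100, miR-6412, miR-3470b, miR-3470a and miR-1195), DESeq2 6 (these and miR-467a-5p) and no filter 11. Leaving out 1 mouse gave 0 to 1, the 1 without mouse 3338. Raw library sizes moved the median log2 change of all miRNAs from -0.02 to 0.10. In Ctrl mice (8.52% of tested miRNAs called) DESeq2 called 22.9%, limma 13.5%, the recovered reads 18% and the G number without the block 0.873%. Leaving out 1 Ctrl mouse gave 1.52% to 5.97% (1.72% without mouse 3335, 1.91% without 3339, 1.94% without 3340, 2.81% without 3342, 1.52% without 3346 and 3.89% without 3350). The difference between the arms gave 7 with DESeq2 and 21 with no filter, and 0 without any 1 mouse. Sex gave 1 with no block and 3 with DESeq2, and month 1 against month 0 in CM mice (3.43%) gave 12.7% with no block and 21.9% with DESeq2. The mean number of miRNAs over 2-fold was 39 higher in CM than in Ctrl mice, and 20.3 higher without mice 3336 and 3368 (exact permutation p = 0.0669). The mean change of miR-126a-3p lay between -0.08 and 0.41 with 1 mouse left out and that of miR-126a-5p between -0.11 and 0.45, with no exact p under 0.05 in any alternative. Of 279 alternative values of the 14 named miRNAs, 273 kept their sign. All that did not were of miR-126a, whose arms kept it in 17 of 20 alternatives each. The other named miRNAs were picked for a small p in a given direction, so their kept sign says little. The cause of these shifts was not tested. The recovered reads, fits without pairs of mice, the Ctrl G number and the 2-fold test were chosen after seeing the data. At the median standard error of 0.31, 7 mice resolve only large changes.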

Other observations

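In CM mice the level of miR-6412 was 33.2 to 65.6 CPM at month 0, 94.8 to 149.8 CPM at month 2 and 33.2 to 140.9 CPM at month 4, so the month 3 levels of 137.2 to 179.7 CPM were not kept by every mouse. In Ctrl mice its median also went up over the months, from 38.6 CPM at month 0 (34.9 to 43.4) to 80.1 CPM at month 1 and 123.9 CPM at month 3. miR-5099, a very abundant sequence whose counts weigh on library size, made up 0.686% to 6.05% of the counts of the CM libraries of months 1 and 3.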
